A study of Mus musculus with 7 samples.

Results

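The genes described here are 10 that encode glutaredoxins and enzymes of glutathione synthesis, recycling and conjugation: Glrx, Glrx2, Glrx3, Glrx5, Gclc, Gclm, Gss, Gsr, Gsta4 and Gstp1. They were taken by gene symbol from a table of 24319 rows, and all 10 were found and passed the filter on low values. The RNA came from cloned mouse embryos, made by injecting a cumulus cell (a somatic cell of the follicle) into an oocyte whose own chromosomes had been removed. In the CROC+K+M group (2 libraries) the recipient oocytes had been vitrified and warmed and the embryos received 10 µM melatonin, an antioxidant indole hormone. The CROC+K group (3 libraries) used vitrified and warmed oocytes without melatonin, and the FOC+K group (2 libraries) used fresh oocytes without melatonin. All groups are labelled with strain B6D2F1, wild-type genotype and the 2-cell stage. All embryos were injected with mRNA of Kdm4a, a histone H3 lysine demethylase, and were activated with strontium chloride, EGTA and cytochalasin B. Each library pooled 50 to 100 embryos, so single embryos cannot be followed. The treatment protocol shared by all libraries names blastocysts as well as 2-cell embryos, and a vehicle is named for the series without saying which libraries received it.

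Glutathione is a tripeptide of glutamate, cysteine and glycine and the main small thiol of animal cells; the oocyte's store of it is known to serve the early embryo, including the remodelling of an incoming nucleus. Glutamate cysteine ligase, made of the catalytic subunit Gclc and the modifier subunit Gclm, joins glutamate to cysteine, and glutathione synthetase (Gss) adds glycine. Glutathione reductase (Gsr) returns oxidised glutathione to its reduced form at the expense of NADPH. Glutaredoxins use glutathione: the dithiol enzymes Glrx (cytosol) and Glrx2 (mainly mitochondria) reduce mixed disulfides between proteins and glutathione, while the monothiol proteins Glrx3 (cytosol) and Glrx5 (mitochondria) handle iron-sulfur clusters. Glutathione transferases conjugate glutathione to electrophiles, and Gsta4 is known for 4-hydroxynonenal, a product of lipid peroxidation.

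Sequences upstream of the gene start were in the RefSeq table for 7 of the 10 genes and are shown for 4 that stand for different patterns below, all in build GRCm38.p6 and read 5′ to 3′ on the gene's strand. Glrx3 (chr7:137437323-137437572, plus strand) had its highest values in both melatonin libraries, and Glrx5 (chr12:105032368-105032617, plus strand) varied least; capitals mark CCAAT on either strand, a motif chosen after the sequences were seen. Gclm (chr3:122245307-122245486, plus strand, cut short at the annotated gene start) and Gstp1 (chr19:4037913-4038162, minus strand) are textbook targets of the stress regulator Nrf2, and capitals in them mark TGACNNNGC or TGAGNNNGC, the core of antioxidant response elements, on either strand.
Glrx3: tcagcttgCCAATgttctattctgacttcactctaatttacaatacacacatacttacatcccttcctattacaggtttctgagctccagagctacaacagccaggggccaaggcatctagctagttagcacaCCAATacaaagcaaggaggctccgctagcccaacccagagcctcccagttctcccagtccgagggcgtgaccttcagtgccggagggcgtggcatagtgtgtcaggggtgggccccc
Glrx5: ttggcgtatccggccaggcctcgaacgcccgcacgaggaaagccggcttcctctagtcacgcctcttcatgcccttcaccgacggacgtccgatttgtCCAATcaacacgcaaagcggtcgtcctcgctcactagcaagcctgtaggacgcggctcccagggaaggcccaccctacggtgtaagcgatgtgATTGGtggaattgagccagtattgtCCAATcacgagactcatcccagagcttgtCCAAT
Gclm: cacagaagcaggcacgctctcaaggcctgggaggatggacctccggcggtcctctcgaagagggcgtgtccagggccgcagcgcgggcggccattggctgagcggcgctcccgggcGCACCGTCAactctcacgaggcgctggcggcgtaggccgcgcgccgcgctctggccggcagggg
Gstp1: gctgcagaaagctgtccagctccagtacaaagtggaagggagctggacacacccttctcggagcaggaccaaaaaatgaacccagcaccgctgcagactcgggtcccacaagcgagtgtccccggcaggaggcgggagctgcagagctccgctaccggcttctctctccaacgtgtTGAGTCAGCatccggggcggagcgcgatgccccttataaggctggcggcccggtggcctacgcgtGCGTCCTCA
Glrx3 held 2 matches of CCAAT and Glrx5 held 4. Of all 32851 windows of 250 bases in that table, 10.1% held at least 2 and 0.84% at least 4. Gclm held 1 TGACNNNGC, which 10.2% of windows held, and also 1 CCAAT that is left in lower case. Gstp1 held 2 matches of TGAGNNNGC, against 1.25% of windows with at least 2, and the upstream match overlaps TGAGTCA. Counting TGACNNNGC and TGAGNNNGC together, 23.0% of windows held at least 1 match and 3.18% at least 2. The Gclm sequence shown is shorter than these windows of 250 bases. Such matches are letters in a window and were not tested as binding sites.

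Values are FPKM (fragments per kilobase of transcript per 1000000 mapped fragments). CROC+K+M replicate 1 stood apart from the other 6 libraries: its log2 values correlated with theirs at 0.851 to 0.875 over genes, against 0.908 to 0.974 among the others. Of 16 blastocyst and trophectoderm markers, 15 were highest in it, their FPKM summed to 28700.5 in it against 85.1 to 170.3 in each of the other libraries, and Cdx2 was listed at 0 in the other 6. It also kept oocyte markers, all 16 of which had an FPKM of at least 1 in every library, and 17 of 19 markers of the 2-cell stage. Cumulus markers summed to 19.7 to 41.0 FPKM per library, with Ptx3 and Amh at 0 in all. The injected Kdm4a ran from 497 FPKM (CROC+K replicate 1) to 4949 FPKM (CROC+K replicate 3). The ribosomal precursor Rn45s was at 1047 to 2114 FPKM in CROC+K replicate 1 and both FOC+K libraries and at 175 to 266 FPKM in the other 4. The main differences and the list counts below are therefore given with and without CROC+K+M replicate 1. Fits without it hold 1 melatonin library, so counts at a p from them do not measure the spread among melatonin libraries. In pooled embryos, fewer cells of a kind and less RNA per cell cannot be told apart.

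By the median of the 7 libraries, FPKM fell into the order Glrx5 (154.9), Gstp1 (60.5), Gsta4 (57.9), Glrx (25.6), Gclm (25.2), Glrx3 (14.2), Gsr (7.80), Gclc (4.73), Glrx2 (4.41) and Gss (2.23). Glrx5 was the highest of the 10 in 6 libraries, and in CROC+K+M replicate 1 Gsta4 stood above it. Neighbours such as Gstp1 and Gsta4, Glrx and Gclm, or Gclc and Glrx2 had ranges that overlapped across libraries. The mitochondrial Glrx5 had a coefficient of variation of 8.68% over the 6 libraries without CROC+K+M replicate 1. The other 9 genes had 40.2% (Gclm) to 77.9% (Gss).

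**Figure D1:**
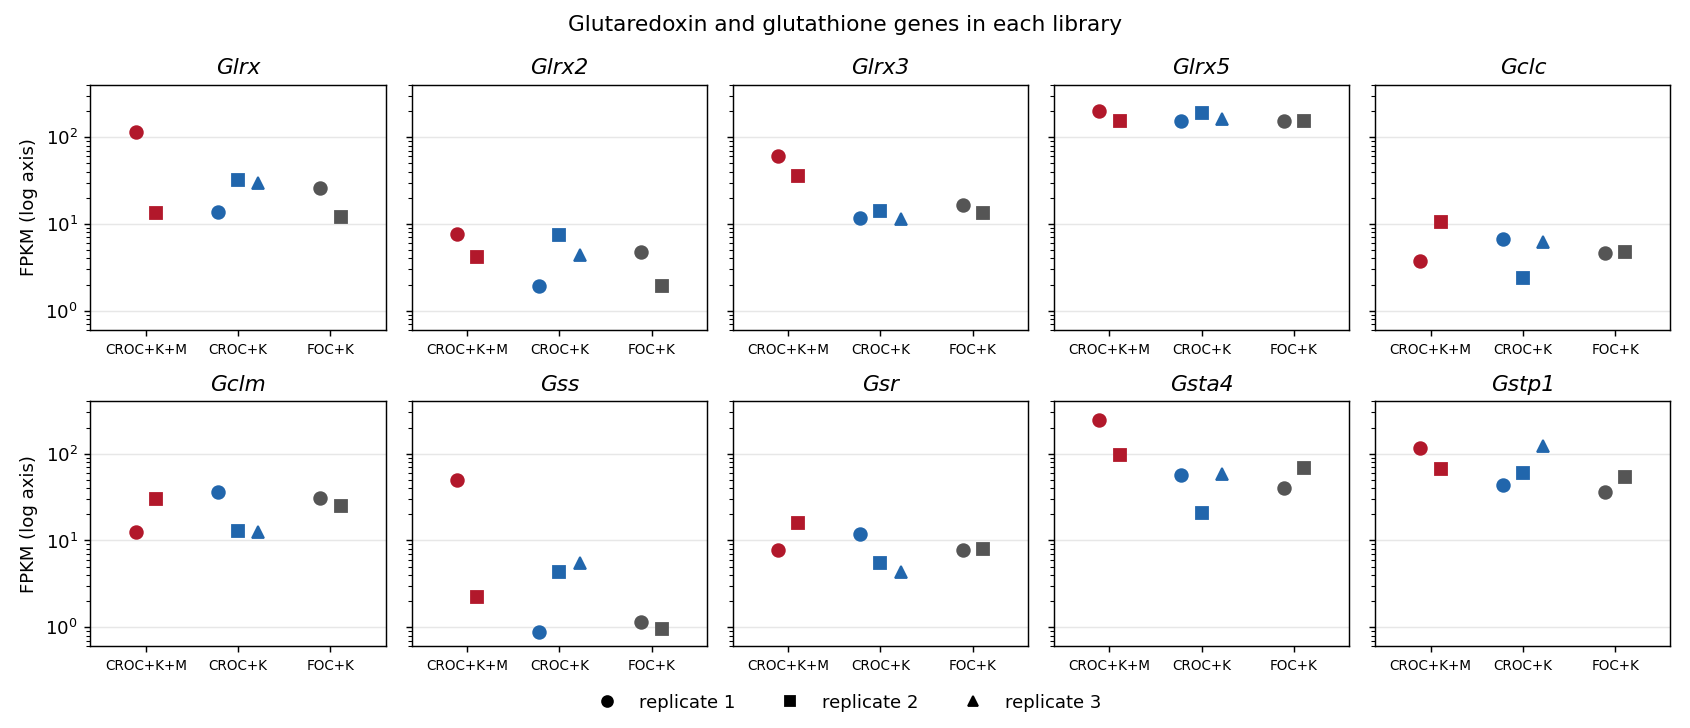
FPKM of each of the 10 genes (log axis) in each library, grouped as CROC+K+M, CROC+K and FOC+K, with circles, squares and triangles for replicates 1, 2 and 3. Glrx3 sits higher in both CROC+K+M libraries than in any other, while Gss is at 50.0 in CROC+K+M replicate 1 and at 5.45 or less elsewhere.

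Among the glutaredoxins, Glrx3 separated the melatonin libraries from all others. Glrx3, the cytosolic monothiol protein that passes on iron-sulfur clusters together with Bola2, had 59.9 and 35.4 FPKM in CROC+K+M embryos, against 11.7, 14.2 and 11.3 FPKM in CROC+K embryos and 16.5 and 13.4 FPKM in FOC+K embryos. Both melatonin libraries lay above all 5 libraries without melatonin. CROC+K+M lay entirely above CROC+K for 12.3% of all genes tested and entirely above FOC+K for 21.3%. Alone, CROC+K+M replicate 2 was above every CROC+K library, as it was for 25.9% of all genes tested, and above both FOC+K libraries, as it was for 40.0%. The blastocyst markers summed to 28700.5 and 85.1 FPKM in the CROC+K+M libraries, and their part in the Glrx3 values was not tested. The mean was 47.6 ± 17.4 FPKM in CROC+K+M embryos (SD, n = 2), 12.4 ± 1.55 in CROC+K embryos (SD, n = 3) and 15.0 ± 2.19 in FOC+K embryos (SD, n = 2). On the log2(FPKM + 1) scale the difference between CROC+K+M and CROC+K was 1.82 ± 0.32 (SE), with an unadjusted p of 0.000583 and an adjusted p of 0.408 in limma. Without CROC+K+M replicate 1 it was 1.45, and with CROC+K+M replicate 1 as the only melatonin library it was 2.19. Each of these fits has 1 melatonin library, so the spread among melatonin libraries is not measured in it. Against FOC+K the difference was 1.57 ± 0.35, and 1.19 without CROC+K+M replicate 1. The gene differed in the same direction in both melatonin libraries, but with both in the fit it did not pass the threshold over all genes. CROC+K and FOC+K differed in Glrx3 by -0.25 ± 0.32.

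The other glutaredoxins did not separate the groups. Glrx, the cytosolic dithiol enzyme, had 116.0 and 13.4 FPKM in CROC+K+M embryos, against 13.7, 31.9 and 29.3 FPKM in CROC+K embryos and 25.6 and 12.0 FPKM in FOC+K embryos. CROC+K+M replicate 1 was 3.63 times the next highest library, and CROC+K+M replicate 2 lay below all CROC+K libraries, so the difference of 0.75 ± 0.84 between these groups became -0.76 without replicate 1. Glrx2, the mainly mitochondrial dithiol enzyme, had 7.65 and 4.20 FPKM in CROC+K+M embryos, against 1.93, 7.36 and 4.41 FPKM in CROC+K embryos and 4.80 and 1.95 FPKM in FOC+K embryos. For both dithiol enzymes the groups overlapped. They also sorted with the injected mRNA: the 4 libraries with the most Kdm4a (CROC+K+M replicate 1, CROC+K replicates 2 and 3, FOC+K replicate 1) all had more Glrx and more Glrx2 than the other 3. Over all genes tested 4.81% did this, and the part of Kdm4a in these values was not tested. Glrx5, which serves iron-sulfur cluster assembly in mitochondria, had 198.6 and 154.1 FPKM in CROC+K+M embryos, against 153.6, 188.6 and 162.1 FPKM in CROC+K embryos and 152.5 and 154.9 FPKM in FOC+K embryos. Its highest library was 1.30 times its lowest, and the difference between CROC+K+M and CROC+K was 0.063 ± 0.25, and -0.12 without CROC+K+M replicate 1.

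As a share of the summed FPKM of the 4 glutaredoxins, Glrx3 made up 15.7% and 17.1% in CROC+K+M embryos, against 6.47%, 5.86% and 5.47% in CROC+K embryos and 8.28% and 7.36% in FOC+K embryos. The share was alike in both melatonin libraries, while the sums were 382.2 FPKM (replicate 1) and 207.1 FPKM (replicate 2). It is made from the same Glrx3 values (59.9 and 35.4 FPKM) and also depends on Glrx, which had 116.0 and 13.4 FPKM in these libraries. The sum of CROC+K+M replicate 2 lay within the 180.9 to 242.0 FPKM of CROC+K libraries and above the 182.3 and 199.4 FPKM of FOC+K libraries. Glrx5 made up 52.0% and 74.4% in CROC+K+M embryos, against 84.9%, 77.9% and 78.3% in CROC+K embryos and 76.5% and 85.0% in FOC+K embryos. Glrx made up 30.3% in CROC+K+M replicate 1 and between 6.48% and 14.1% in the other 6 libraries.

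**Figure D2:**
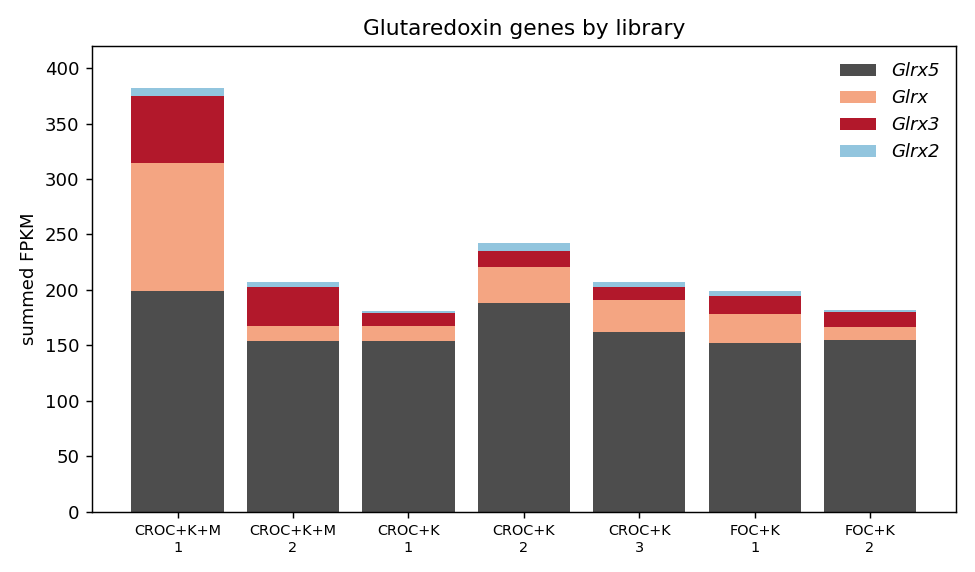
FPKM of the 4 glutaredoxin genes stacked in 1 bar for each of the 7 libraries. The Glrx3 segment is 15.7% and 17.1% of the bar in the CROC+K+M libraries and 5.47% to 8.28% in the other 5, and the Glrx segment is tallest in CROC+K+M replicate 1.

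The genes of glutathione synthesis did not share a pattern across libraries. Gclc, the catalytic subunit of glutamate cysteine ligase, had 3.70 and 10.7 FPKM in CROC+K+M embryos, against 6.69, 2.41 and 6.19 FPKM in CROC+K embryos and 4.59 and 4.73 FPKM in FOC+K embryos. Its highest value was in CROC+K+M replicate 2, while CROC+K+M replicate 1 was the lowest but 1 of the 7, so the groups overlapped. Gclm, the modifier subunit, had 12.5 and 30.1 FPKM in CROC+K+M embryos, against 35.9, 12.7 and 12.5 FPKM in CROC+K embryos and 30.7 and 25.2 FPKM in FOC+K embryos. The 3 libraries CROC+K+M replicate 1 and CROC+K replicates 2 and 3 lay between 12.5 and 12.7 FPKM and the other 4 at 25.2 FPKM or more, a division that crosses the groups. These 3 libraries also held the most Kdm4a of the 7, and 8.0% of all genes tested were lower in all 3 of them than in each of the other 4. This cut follows the Gclm values. The 4 libraries with the most Kdm4a did not all lie below the other 3 in Gclm, since FOC+K replicate 1 had 30.7 FPKM. The part of Kdm4a was not tested. The ratio of Gclm to Gclc FPKM was 3.36 and 2.83 in CROC+K+M embryos, against 5.37, 5.27 and 2.02 in CROC+K embryos and 6.69 and 5.34 in FOC+K embryos.

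Gss, the enzyme that completes glutathione, had 50.0 and 2.23 FPKM in CROC+K+M embryos, against 0.881, 4.34 and 5.45 FPKM in CROC+K embryos and 1.16 and 0.946 FPKM in FOC+K embryos. CROC+K+M replicate 1 stood 9.16 times above the next library, and CROC+K+M replicate 2 lay among the CROC+K libraries. The difference between CROC+K+M and CROC+K was 1.68 ± 1.08 with all libraries and -0.31 without CROC+K+M replicate 1. With CROC+K+M replicate 1 as the only melatonin library it was 3.67, so a higher Gss rested on that library, which carries the trophectoderm markers. Their part in it was not tested. If the smallest step of the low values is 1 fragment, the Gss values amount to about 430 and 24 fragments in CROC+K+M embryos, against 7, 34 and 40 in CROC+K embryos and 8 and 9 in FOC+K embryos. Gss was thus barely covered in 3 libraries, which are the 3 with high Rn45s.

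Gsr, which recycles oxidised glutathione, had 7.80 and 15.8 FPKM in CROC+K+M embryos, against 11.9, 5.51 and 4.34 FPKM in CROC+K embryos and 7.70 and 7.96 FPKM in FOC+K embryos. Like Gclc it was highest in CROC+K+M replicate 2, whereas CROC+K+M replicate 1 lay inside the range of CROC+K, so these groups overlapped. The difference between CROC+K+M and CROC+K was 0.67 ± 0.47, and 1.13 without CROC+K+M replicate 1. The 4 libraries with the most Kdm4a all had less Gsr than the other 3, an order that 5.82% of genes tested shared. Gss was 67.6% and 3.80% of the summed FPKM of Gclc, Gclm, Gss and Gsr in the CROC+K+M libraries, against 1.59% to 19.1% in CROC+K embryos and 2.43% and 2.62% in FOC+K embryos.

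**Figure D3:**
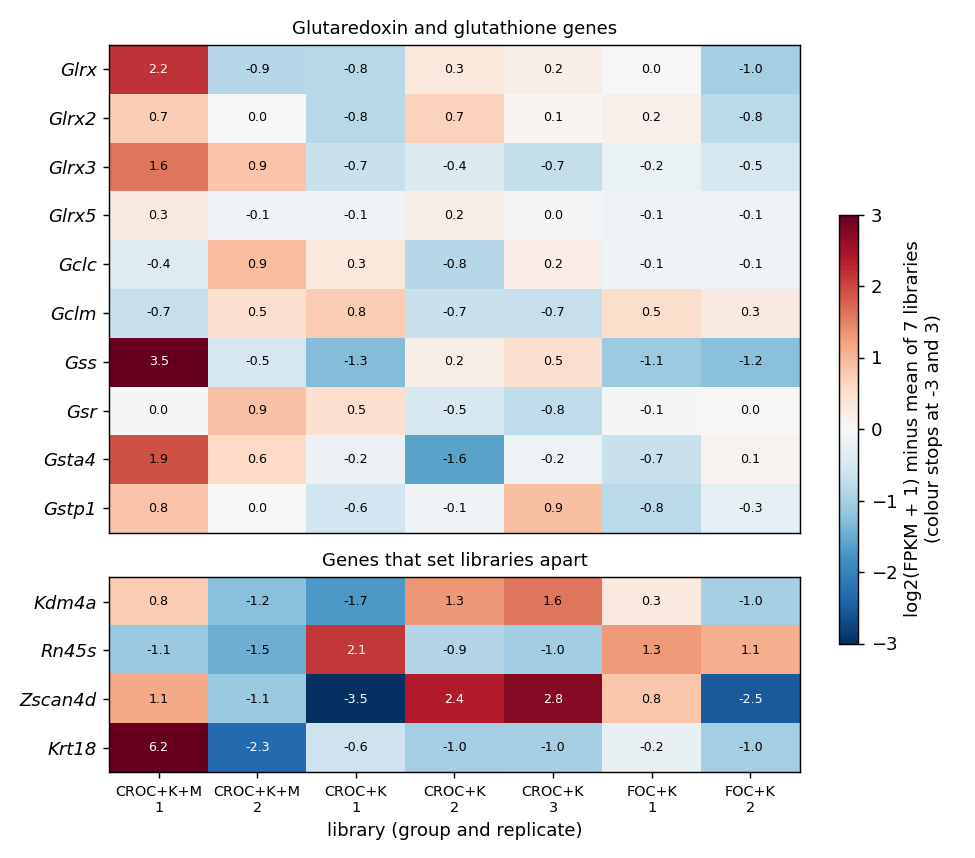
Deviation of log2(FPKM + 1) from the mean of the 7 libraries for the 10 genes (top) and for Kdm4a, Rn45s, Zscan4d (a gene of the 2-cell stage) and Krt18 (a trophectoderm keratin; bottom), with libraries in columns and colours that stop at -3 and 3. Glrx3 is above its mean only in both CROC+K+M libraries, Gss departs most in CROC+K+M replicate 1, and Gclm is low in CROC+K+M replicate 1 and CROC+K replicates 2 and 3.

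Of the transferases, Gsta4 separated CROC+K+M from the other groups. Gsta4 had 244.1 and 97.8 FPKM in CROC+K+M embryos, against 57.5, 20.5 and 57.9 FPKM in CROC+K embryos and 40.4 and 69.3 FPKM in FOC+K embryos. Both melatonin libraries lay above all 5 others, and replicate 1 was 2.49 times replicate 2. Over all genes tested, 12.3% had CROC+K+M entirely above CROC+K and 21.3% had it entirely above FOC+K. The mean was 171.0 ± 103.4 FPKM in CROC+K+M embryos (SD, n = 2), 45.3 ± 21.5 in CROC+K embryos (SD, n = 3) and 54.8 ± 20.4 in FOC+K embryos (SD, n = 2). The difference between CROC+K+M and CROC+K was 1.89 ± 0.58 (unadjusted p 0.0121, adjusted p 0.408 in limma). It was 1.23 without CROC+K+M replicate 1. Against FOC+K it was 1.53 ± 0.63, then 0.94 under equal sums of FPKM and 0.87 without that library.

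Gstp1, the pi-class transferase, had 117.9 and 66.2 FPKM in CROC+K+M embryos, against 43.4, 60.5 and 123.8 FPKM in CROC+K embryos and 36.6 and 53.5 FPKM in FOC+K embryos. Its highest library was CROC+K replicate 3, and CROC+K+M and CROC+K overlapped. Both melatonin libraries lay above both FOC+K libraries, as they did for 21.3% of all genes. The difference from FOC+K was 0.98 ± 0.53, and 0.39 under equal sums of FPKM. The 4 libraries low in Rn45s all had more Gstp1, and also more Gss, than the 3 high in it. Over all genes 6.66% did so and 5.22% lay in the reverse order, as no member did, and the part of Rn45s was not tested. The 4 libraries low in Rn45s also had the larger FPKM sums over all rows, 726297 to 1017995 against 552356 to 585039. These orders of libraries are in FPKM as deposited and were not recomputed under equal sums. Gstp1 has a near-identical neighbour, Gstp2, so the split of reads between them is uncertain; Gstp1 was 1.61 to 4.07 times Gstp2 in FPKM. Gsta4 was 2.07 and 1.48 times Gstp1 in CROC+K+M embryos, against 1.33, 0.339 and 0.468 times in CROC+K embryos and 1.10 and 1.29 times in FOC+K embryos.

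For melatonin on vitrified oocytes (CROC+K+M against CROC+K), none of the 10 genes passed an adjusted p of 0.05 in limma, nor did any of the 12272 genes tested (0.0%). When CROC+K+M replicate 2 was left out, genes did pass, Glrx3 and Gss among them. That fit rests on CROC+K+M replicate 1 alone and assumes that it varies like the other groups. At an unadjusted p under 0.05, Glrx3 and Gsta4 were higher and no member was lower, where 821 genes (6.69%) were higher and 460 (3.75%) lower among all genes. The groups did not overlap, with CROC+K+M higher, for Glrx3 and Gsta4, which 12.3% of all genes did, and for no member with CROC+K+M lower (11.2%). On the log2 scale the mean was higher in CROC+K+M for 10 of 10 members, beside 54.1% of all genes. That count was 8 under equal sums of FPKM and under quantile normalization, where Glrx5 and Gclm turned lower, and 6 without CROC+K+M replicate 1, beside 52.3% of all genes. Without that library the difference was 1.45 for Glrx3 and 1.23 for Gsta4. That fit holds 1 melatonin library, so the spread among melatonin libraries is not measured in it. The median of the 10 differences was 0.53, against 0.058 over all genes, and 0.37 against 0.033 without CROC+K+M replicate 1. CROC+K+M replicate 2 alone was above every CROC+K library for Glrx3, Gclc, Gsr and Gsta4 (25.9% of all genes) and below every one for Glrx (23.2%).

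For vitrification (CROC+K against FOC+K), no member passed an adjusted p of 0.05 (0.0% of all genes) or an unadjusted p of 0.05 in limma, where 140 genes (1.14%) were higher and 129 (1.05%) lower. For no member did CROC+K lie entirely above (9.66% of all genes) or entirely below FOC+K (9.47%). The differences ran from -0.60 ± 0.55 for Gclm to 0.97 ± 1.08 for Gss, each within 2 SE of 0. CROC+K embryos averaged 20.4 ± 13.5 FPKM of Gclm (SD, n = 3) and FOC+K embryos 28.0 ± 3.87 FPKM (SD, n = 2). The mean on the log2 scale was higher in CROC+K for 6 of 10 members, beside 47.3% of all genes; this was 4 under equal sums of FPKM, where Glrx5 and Gclc turned lower, and 5 under quantile normalization, where Glrx5 did. The SEs leave room for differences in either direction, so the result does not show that vitrification left these genes alike.

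CROC+K+M against FOC+K shares its melatonin libraries with the first comparison and its fresh-oocyte libraries with that of CROC+K. Again no gene passed an adjusted p of 0.05 in limma (0.0%). When CROC+K+M replicate 2 was left out, genes did pass, Glrx3 and Gss among them, in a fit that rests on CROC+K+M replicate 1 alone. With all libraries Glrx3 and Gsta4 were higher at an unadjusted p under 0.05 in limma, as were 547 genes (4.46%). Under equal sums of FPKM their differences were 0.99 and 0.94 (unadjusted p 0.0257 and 0.174 in limma). Under quantile normalization they were 1.37 and 1.13 (unadjusted p 0.00337 and 0.0791 in limma). CROC+K+M lay entirely above FOC+K for Glrx3, Gss, Gsta4 and Gstp1, beside 21.3% of all genes, and entirely below it for no member, beside 19.8%. The mean was higher for 9 of 10 members, all but Gclm, beside 52.9% of all genes; under equal sums of FPKM it was higher for 6, since Glrx5, Gclc and Gsr turned lower. Gss had the widest SE of the 10, with a difference of 2.65 ± 1.18 that was 0.66 without CROC+K+M replicate 1. Without that library 9 members had a higher mean than in FOC+K, beside 51.3% of all genes, and Glrx3 alone had an unadjusted p under 0.05 in limma, beside 2.62% of all genes higher and 2.53% lower. CROC+K+M replicate 2 alone was above both FOC+K libraries for Glrx3, Gclc, Gss, Gsr, Gsta4 and Gstp1 (40.0% of all genes) and below both for no member (37.4%).

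**Figure D4:**
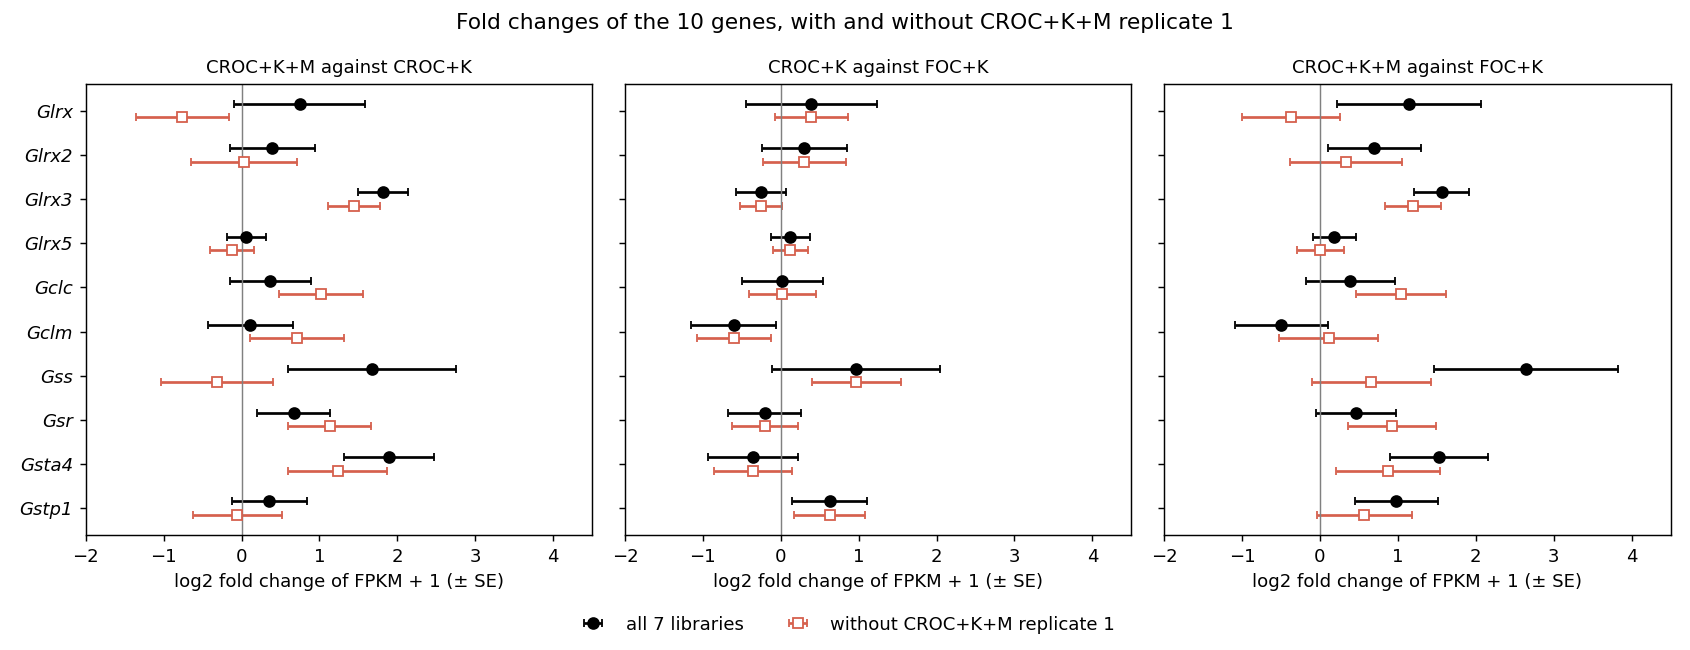
Log2 fold change of FPKM + 1 (points, with bars of 1 SE from limma) for the 10 genes in the panels CROC+K+M against CROC+K, CROC+K against FOC+K, then CROC+K+M against FOC+K, with all 7 libraries (filled) and without CROC+K+M replicate 1 (open). Glrx3 stays at 1.45 or more against CROC+K in both, while Glrx, Glrx5, Gss and Gstp1 lie below 0 in that comparison without the library.

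CROC+K+M replicate 1 was the highest of the 7 libraries for Glrx, Glrx2, Glrx3, Glrx5, Gss and Gsta4, as it was for 26.7% of all genes. It was the lowest for Gclm (18.0%). For Glrx, Gss and Gsta4 it exceeded every other library by more than 2 times, which 10.2% of genes did. Members elevated in this library include ones for which CROC+K+M replicate 2 also lay above every CROC+K library (Glrx3 and Gsta4) and ones for which it did not (Glrx and Gss). For Gss, CROC+K+M replicate 2 did lie above both FOC+K libraries.

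Genes that use or feed the same pathway were read from lists, none of whose members passed an adjusted p of 0.05 in limma in CROC+K+M against CROC+K. The counts stand beside those of all genes tested, of which 54.1% were higher in CROC+K+M, 6.69% higher and 3.75% lower at an unadjusted p under 0.05, and 12.3% entirely above and 11.2% entirely below CROC+K, with a median difference of 0.058. Without CROC+K+M replicate 1, 52.3% were higher, 4.01% higher and 4.38% lower at that p, with a median of 0.033, and under equal sums of FPKM the median was -0.14. Genes named from the lists were picked by their small p in this comparison, so that their groups lie apart is a description and no further test. Among 24 measured genes of iron-sulfur cluster assembly, 22 were higher in CROC+K+M 16 without its replicate 1 and 17 under equal sums of FPKM; 5 were higher at an unadjusted p under 0.05 and none lower, against 2 higher and 1 lower without that library. The median difference was 0.47, against 0.058 over all genes, and 0.35 against 0.033 without replicate 1. Isca2, a mitochondrial assembly factor for clusters, had 73.4 and 22.1 FPKM in CROC+K+M embryos, against 13.3, 11.4 and 6.44 FPKM in CROC+K embryos and 11.2 and 12.6 FPKM in FOC+K embryos. Fdx1l, a mitochondrial ferredoxin, had 135.5 and 49.8 FPKM in CROC+K+M embryos, against 26.7, 29.8 and 14.7 FPKM in CROC+K embryos and 20.9 and 32.6 FPKM in FOC+K embryos. In both genes the 2 melatonin libraries were the highest of the 7, replicate 1 by far. Bola2, the partner of Glrx3 and chosen after its values were seen, had 678.5 and 492.9 FPKM in CROC+K+M embryos, against 203.0, 289.7 and 323.5 FPKM in CROC+K embryos and 221.3 and 134.7 FPKM in FOC+K embryos. Bola2 was higher in both melatonin libraries than in the other 5, with a difference from CROC+K of 1.11 ± 0.34 (adjusted p 0.408 in limma). This was 0.88 without CROC+K+M replicate 1. Since Bola2 was chosen by these values, they are a description and no test of the Glrx3 pattern. Of the same list, Bola1 had 152.0 and 88.3 FPKM in CROC+K+M embryos, against 41.2, 140.4 and 139.1 FPKM in CROC+K embryos. Bola3 had 258.4 and 5.00 FPKM, against 9.60, 10.9 and 3.70 FPKM, so both overlapped.

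Of 20 measured other transferases, 16 were higher in CROC+K+M embryos than in CROC+K embryos, 3 of them at an unadjusted p under 0.05, with a median of 0.38, and 13 without CROC+K+M replicate 1, 2 of them at that p beside 1 lower, with a median of 0.19. Under equal sums of FPKM 12 of the 20 were higher. Gstm4, a mu-class enzyme, had 4.59 and 1.78 FPKM in CROC+K+M embryos, against 0.161, 0 and 0 FPKM in CROC+K embryos and 1.30 and 1.21 FPKM in FOC+K embryos. Mgst1, a membrane-bound transferase, had 3.92 and 5.14 FPKM in CROC+K+M embryos, against 2.41, 1.90 and 1.45 FPKM in CROC+K embryos and 4.30 and 3.57 FPKM in FOC+K embryos. For both, all CROC+K libraries lay below the other 4. Over all genes, 12.3% had CROC+K+M entirely above CROC+K, and 9.47% had CROC+K entirely below FOC+K. In Gstm4 both melatonin libraries also lay above both FOC+K libraries. The most abundant transferase of the list was Mgst3, chosen after its values were seen, at 835 to 3328 FPKM across the 7 libraries, above every one of the 10 genes.

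NADPH supply, which Gsr draws on, had 8 of 10 measured genes higher in CROC+K+M embryos than in CROC+K embryos (median 0.53), 3 of them at an unadjusted p under 0.05, and 6 without CROC+K+M replicate 1, 1 of them at that p (median 0.56). Under equal sums of FPKM 8 of 10 were higher. Idh2, the mitochondrial isocitrate dehydrogenase that makes NADPH, had 27.7 and 1.81 FPKM in CROC+K+M embryos, against 0.273, 0 and 0.148 FPKM in CROC+K embryos and 1.88 and 1.48 FPKM in FOC+K embryos. Pgls, of the pentose phosphate pathway, had 47.7 and 1.99 FPKM in CROC+K+M embryos, against 1.74, 0 and 0 FPKM in CROC+K embryos and 1.33 and 1.22 FPKM in FOC+K embryos. Both were dominated by CROC+K+M replicate 1. In CROC+K+M replicate 2, Idh2 was close to the FOC+K libraries and Pgls was nearest to CROC+K replicate 1.

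For cysteine and glutamate supply 8 of 13 measured genes were higher, 1 at an unadjusted p under 0.05 and 1 lower, with a median of 0.047, which is near the 0.058 of all genes. Without CROC+K+M replicate 1 again 8 were higher, with a median of 0.27 against 0.033 over all genes and none at an unadjusted p under 0.05. Under equal sums of FPKM 6 were higher, with a median of -0.10 against -0.14 over all genes. Slc3a2, the heavy chain of the cystine and glutamate exchanger, had 57.7 and 59.8 FPKM in CROC+K+M embryos, against 87.9, 86.5 and 90.0 FPKM in CROC+K embryos and 66.2 and 64.7 FPKM in FOC+K embryos. Slc3a2 was lower in both melatonin libraries than in every CROC+K library, as 11.2% of all genes were. Its libraries lay close together within each group and the 3 groups did not overlap. CROC+K+M lay entirely below FOC+K for 19.8% of all genes, and CROC+K entirely above FOC+K for 9.66%. Slc7a11 of the same list had 4.56 and 3.31 FPKM in CROC+K+M embryos, against 4.13, 5.58 and 4.79 FPKM in CROC+K embryos, so it overlapped. For Slc3a2 the difference between CROC+K+M and CROC+K was -0.58 ± 0.23 (unadjusted p 0.0378, adjusted p 0.455 in limma). This was -0.55 without CROC+K+M replicate 1.

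In the remaining lists, glutathione breakdown and recycling had 6 of 10 measured genes higher in CROC+K+M embryos than in CROC+K embryos and a median of 0.079, with none at an unadjusted p under 0.05. Without CROC+K+M replicate 1 again 6 were higher, with a median of 0.069 against 0.033 over all genes. Under equal sums of FPKM 4 were higher, with a median of -0.046 against -0.14 over all genes. Its examples Cndp2 and Lap3, peptidases that release amino acids, were led by CROC+K+M replicate 1 (98.6 and 17.2 FPKM), whereas in CROC+K+M replicate 2 they stood at 8.38 and 1.77 FPKM. Other glutathione-using enzymes and exporters had 7 of 9 higher, 1 at an unadjusted p under 0.05, with a median of 0.23. Without CROC+K+M replicate 1, 5 of 9 were higher, none at that p, with a median of 0.33, and under equal sums of FPKM 5 of 9 were. Glo1, the glyoxalase that uses glutathione to clear methylglyoxal, had 80.0 and 29.2 FPKM in CROC+K+M embryos, against 22.4, 14.9 and 13.5 FPKM in CROC+K embryos and 15.9 and 18.6 FPKM in FOC+K embryos, so both melatonin libraries were the highest. Esd, which frees glutathione from its formaldehyde adduct, had 57.4 and 14.7 FPKM in CROC+K+M embryos, against 4.89 to 17.6 FPKM in CROC+K embryos and 8.32 and 12.6 FPKM in FOC+K embryos.

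Of 13 measured genes of the Nrf2 pathway, the transcription factor route that drives Gclc, Gclm and many transferases, 10 were higher in CROC+K+M embryos than in CROC+K embryos with a median of 0.48, and 8 without CROC+K+M replicate 1 with a median of 0.21 and 7 under equal sums of FPKM; none had an unadjusted p under 0.05. Nqo1, a quinone reductase and a common marker of the pathway, had 6.90 and 7.69 FPKM in CROC+K+M embryos, against 10.9, 12.4 and 32.8 FPKM in CROC+K embryos and 19.2 and 12.2 FPKM in FOC+K embryos. Both melatonin libraries were below all others for Nqo1, the reverse of Gsta4. Such an order held for 11.2% of all genes against CROC+K and for 19.8% against FOC+K. Nqo1 was among the 3 of these 13 genes with a lower mean in melatonin embryos, against 10 with a higher one. Activity of the pathway was not tested. Srxn1, sulfiredoxin, had 2.90 and 0.586 FPKM in CROC+K+M embryos, against 0.0792, 0.642 and 0 FPKM in CROC+K embryos and 1.18 and 0.728 FPKM in FOC+K embryos.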

How the data were processed

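RNA of pooled embryos with an RNA integrity number above 7.0 was sequenced in 7 libraries, prepared with SMARTer Ultra Low Input and ScriptSeq v2 kits, per the labels' protocols. The authors deposited FPKM values for 24319 rows without coordinates. The build mm9 and the tools STAR 2.5.2b, Cuffnorm, Cufflinks 2.2.1 and R 3.3.2 are listed per the submitters' processing notes; the annotation used is not given in the sources used here, nor any scaling between libraries. Reads of near-identical genes are divided by a model in Cufflinks. Read depth is not given; steps of low values imply that per library 3.88 to 6.04 times 1000000 fragments were counted, if a step is 1 fragment (18.1% to 24.4% of low genes lay at the implied step ratio).

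Groups and replicate numbers come from the sample titles. Values were used as log2(FPKM + 1), which understates changes of low genes, without rescaling. Small RNA and ribosomal RNA rows (1275) were left out, and genes with an FPKM of at least 1 in 2 or more libraries were tested (12272). limma 3.58.1 (intensity trend, R 4.3.3) was fitted to all 7 libraries by group alone, which leaves 4 residual degrees of freedom; two-sided p-values had Benjamini-Hochberg adjustment over all 12272 genes and a threshold of 0.05. The p-values measure the spread between these libraries, since the labels call them biological replicates without saying how they were made. The script was tested on simulated data. Alternatives were other scalings, pseudocounts, filters, library weights, the replicate block, Rn45s or Kdm4a as a term, and each library left out; the Kdm4a term was chosen after seeing the data.

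The members and lists were chosen with earlier results of these data known. All 10 members are named, and from each of the 7 pathway lists the 2 measured genes with the smallest unadjusted p in CROC+K+M against CROC+K; 1 gene that this rule takes is not reported here. Upstream sequences come from RefSeq tables of GRCm38.p6, a build other than that of the FPKM values.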

Additional observations from a re-analysis of the deposited data

How the results depend on the processing

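Glrx3 and Gsta4 were higher in CROC+K+M embryos than in CROC+K embryos under all 17 alternatives run, by 1.45 to 2.19 and by 1.23 to 2.54. With both melatonin libraries in the fit, neither had an adjusted p under 0.05 in limma. These alternatives are not independent. Other filters, a fit of only the 2 groups, and leaving out a FOC+K library cannot change these differences. The Rn45s term gave the same values as leaving out CROC+K replicate 1, and the replicate block the same as leaving out CROC+K replicate 3. Over the 510 values recomputed, 453 kept direction and side of the threshold and 53 changed direction, and the cause was not tested. The 510 include values that a setting could not change or that repeat another setting. Leaving out 1 library at a time, calls over all genes ran from 0 to 658 for CROC+K+M against CROC+K, then from 0 to 546 for CROC+K+M against FOC+K, and called members from 0 to 2 in both: Glrx3 and Gss were called when CROC+K+M replicate 2 was left out (limma adjusted p 0.0146 with 0.0314, then 0.0295 and 0.0196), where the lone library is assumed to vary like the other groups. CROC+K against FOC+K gave 0 calls throughout. For CROC+K+M against CROC+K, leaving out 1 library moved Glrx from -0.76 to 2.26, Glrx2 from -0.0050 to 0.76, Glrx5 from -0.12 to 0.24, Gclc from -0.29 to 1.02, Gclm from -0.50 to 0.71, Gss from -0.31 to 3.67 and Gstp1 from -0.055 to 0.77. For CROC+K against FOC+K it moved Glrx from -0.12 to 0.91, Glrx2 from -0.19 to 0.79, Gclc from -0.19 to 0.39, Gsr from -0.58 to 0.052 and Gsta4 from -0.74 to 0.12. For CROC+K+M against FOC+K it moved Glrx from -0.37 to 2.65, Gclc from -0.27 to 1.04, Gclm from -1.10 to 0.11 and Gsr from -0.0050 to 0.93. Equal sums of FPKM moved the median of all genes to -0.14, -0.30 and -0.44 in the comparisons CROC+K+M against CROC+K, CROC+K against FOC+K, then CROC+K+M against FOC+K (0.058, -0.027 and 0.037 as deposited) and turned genes at an unadjusted p under 0.05 in the first of them to 478 higher and 743 lower. They gave Glrx5 -0.19 and Gclm -0.13 for CROC+K+M against CROC+K, Glrx5 -0.22 and Gclc -0.26 for CROC+K against FOC+K, and Glrx5 -0.41, Gclc -0.094 and Gsr -0.069 for CROC+K+M against FOC+K. Relative to those medians the members' median difference in these comparisons was 0.45, 0.064 and 0.74, against 0.47, 0.098 and 0.80 as deposited. Quantile normalization gave Glrx5 -0.20 and Gclm -0.020, then Glrx5 -0.11, then Glrx5 -0.31. Same-numbered libraries correlated at -0.46 to 0.03 in their deviations from group means. In groups of 2 these deviations mirror each other, so this cannot decide whether the numbers mark pairs. With the replicate block no gene was called in any comparison. At an unadjusted p under 0.05 in limma there were 706, 97 and 543 genes with it, against 1281, 269 and 793 without it. Values that turned were Gclm -0.14 for CROC+K+M against CROC+K, then Gclc -0.14 and Gsr 0.052 for CROC+K against FOC+K. High Rn45s marked both FOC+K libraries and, of the rest, only CROC+K replicate 1, so Rn45s is tied to group. With Rn45s as a term, CROC+K against FOC+K therefore rests on CROC+K replicate 1 alone. CROC+K+M against CROC+K then rests on CROC+K replicates 2 and 3, and CROC+K+M against FOC+K is bridged only by CROC+K replicate 1. With this term Glrx2 was -0.0050 for CROC+K+M against CROC+K. For CROC+K against FOC+K Glrx was -0.34, Glrx2 -0.50, Glrx5 -0.00099, Gclm 0.36, Gss -0.12, Gsr 0.54, Gsta4 0.12 and Gstp1 -0.028. For CROC+K+M against FOC+K Glrx2 was -0.50, Glrx5 -0.00022 and Gclm 0.95. With log2 Kdm4a as a term, chosen after seeing the data, Gclm was -0.16 for CROC+K+M against CROC+K, then Glrx -0.075 and Gsr 0.057 for CROC+K against FOC+K. Gclc in CROC+K against FOC+K was -0.0020 with a pseudocount of 0.1 and -0.15 with library weights. Groups of 2 and 3 libraries with 4 residual degrees of freedom limit what could be called.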
